A study of Homo sapiens with 4 samples.

Results

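The integrins, collagens, laminins and fibronectin are the receptors and the scaffold through which a cell holds on to its surroundings. They were described in the nuclear RNA of MDA-MB-231 cells, a triple-negative breast cancer line with mesenchymal traits. Members were the genes whose symbol in the deposited transcript table begins with ITGA followed by a digit, V, E or X, is ITGB followed by a digit, is a numbered COL or LAM chain such as COL4A1 or LAMB3, or is FN1. The pattern found 60 of the 20298 listed genes, with 314 of the 75165 listed transcripts. Of the 60 genes, 20 fell in the integrin set and 40 in the matrix set. The integrin set held 18 integrin genes and 2 antisense RNAs, ITGA6-AS1 and ITGA9-AS1, whose symbols the pattern also caught.

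RNA was immunoprecipitated with YTHDC1, a nuclear protein that binds N6-methyladenosine in RNA, and sequenced beside its input. There were 4 libraries, 2 of YTHDC1 IP and 2 of input. All cells, those of the input included, carried 3x flag-YTHDC1 from a lentivirus at a multiplicity of infection of 4 and had been selected in 2 µg/ml puromycin for 4 days, so no library came from cells with YTHDC1 at its own level. Cells were exposed 3 times to 254 nm ultraviolet light at 120000 µJ/cm2, nuclei were isolated and sonicated, and 5 µg of anti-flag antibody was added to 500 µg of nuclear protein. The input was 50 µg of lysate protein (10%), named total RNA in the labels although the protocol takes it from nuclear lysate. The tagged reader itself was listed at a level of 55488, above 99.8% of genes, and reads of the transgene and of the cells' own gene cannot be told apart in it.

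The only value used for a transcript was the authors' mean normalized count over IP and input libraries together, and the level of a gene is the sum of that value over its listed transcripts. It carries no SD and no n, library depths are unknown, and no test was possible. IP was not compared with input here, so no level says how strongly a transcript was bound. Levels are reads and not molecules, because a longer RNA gives more reads and no transcript lengths were at hand. Levels of different genes are therefore set side by side without ranking their abundance.

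An integrin is a pair of 1 alpha and 1 beta chain that spans the membrane. The alpha chain largely decides whether the pair holds collagen, laminin or proteins with the RGD motif such as fibronectin, and the beta chain links it to the cytoskeleton. Collagens are trimers that form fibrils, networks or beaded filaments. Laminins are trimers of an alpha, a beta and a gamma chain and, with collagen IV, build the basement membrane. In epithelial tumours these genes are known for their part in adhesion and invasion.

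The cell line was checked against marker genes. All 6 markers chosen for MDA-MB-231 (VIM, KRT8, KRT18, EGFR, CD44 and CAV1) had levels of at least 7624, with vimentin (VIM) at 80785. Among them, KRT8 at 31132 and KRT18 at 27123 are keratins of luminal epithelium too, and were not counted with the epithelial markers. Of 5 epithelial or luminal markers, ERBB2 was at 4303, EPCAM at 78.3 and CDH1 at 10.0, and ESR1 and PGR were not listed here. Among markers of other cells, PDGFRB of fibroblasts and pericytes was at 526, PECAM1 of endothelium at 102 and PTPRC of leukocytes at 3.81, and DCN, LUM, CDH5 and CD3E were not listed here. The type I collagen genes, which fibroblasts also make, stood at 705 (COL1A1) and 490 (COL1A2), and the part of other cells in them was not tested.

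The members together held 1.05% of the summed level of the table. The integrin set summed to 126085 (0.378%) and the matrix set to 222945 (0.668%). The median level was 332 for the integrin set (quartiles 57.8 and 6499), or 749 for its 18 protein-coding genes without the 2 antisense RNAs, and 1223 for the matrix set (59.5 and 8591), beside 227 for all genes and 588 for the 14050 protein-coding genes. A level of at least 1000 was reached by 9 of the 18 protein-coding integrin genes (50.0%) and 20 of 40 matrix genes (50.0%), beside 37.8% of protein-coding genes. A level under 100 was seen in 4 of the 18 integrin genes (22.2%) and 13 matrix genes (32.5%), beside 21.4% of protein-coding genes. The share of integrin genes at the low end was thus near the background. The middle of the integrin set was thinly filled, since the tenth highest gene, ITGA1, stood at 369 and the ninth, ITGAV, at 1129, and its median moved with the genes that were kept, to 749 without the antisense RNAs and 1129 with transcripts of at least 10, which left 17 genes. The log2 ratio of the integrin to the matrix median was -1.88, it was -1.06 with only the genes that have a protein-coding transcript, and it was -0.11 with transcripts of at least 10.

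**Figure D1:**
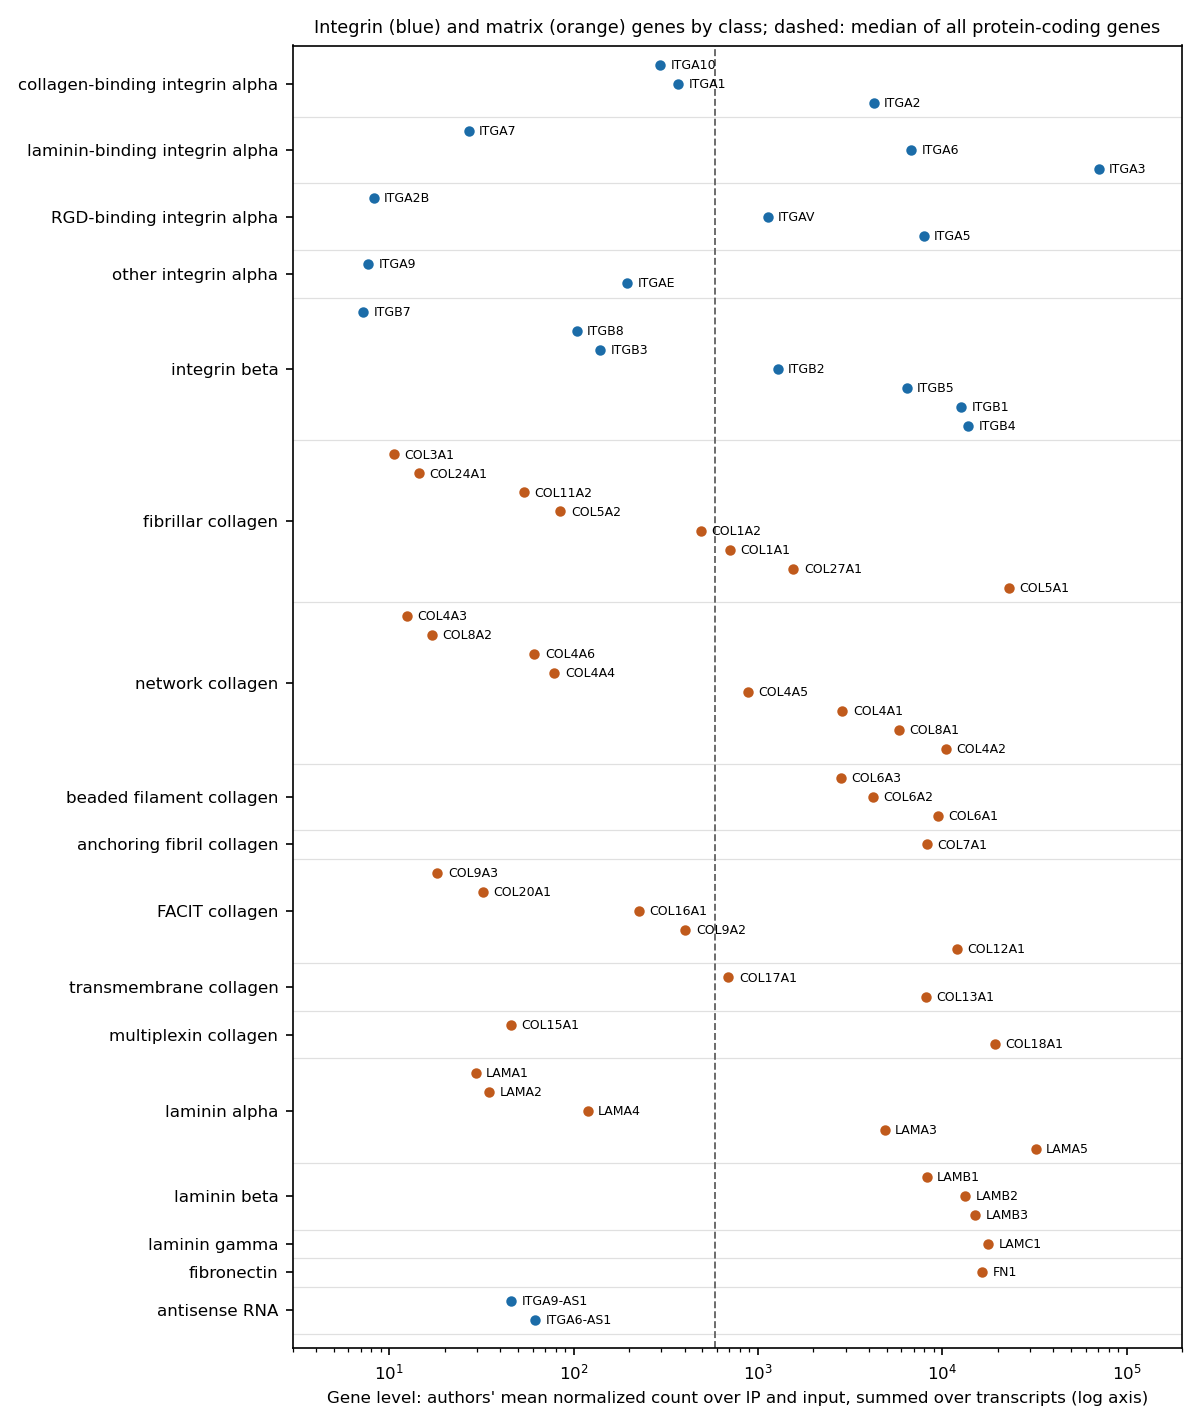
Gene level of 59 members on a log axis, grouped by class, with integrin genes in blue, matrix genes in orange and the median of all protein-coding genes (588) as a dashed line. Points run from 7.19 (ITGB7) to 70525 (ITGA3), and most classes hold genes on both sides of the line.

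The integrin signal lay largely in 1 gene. ITGA3, the alpha chain of the laminin receptor that pairs with ITGB1 (GRCh38 chr17:50056110-50090481), had a level of 70525, which was 55.9% of the integrin sum. The 3 highest genes held 77.0% of the integrin sum, and in the matrix set the 3 highest held 33.4%. The integrin set has 20 genes and the matrix set 40, so these shares are not measured alike. Among the laminin-binding chains, ITGA6, which pairs with ITGB4 in hemidesmosomes and also with ITGB1, was at 6782, and ITGA7, a chain known from muscle, was at 27.0. All 3 chains of this class were listed.

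The collagen-binding alpha chains were ITGA2 at 4255, ITGA1 at 369 and ITGA10 at 295, and ITGA11 was not listed here. Of the RGD-binding chains, ITGA5, the fibronectin receptor, was at 7924 and ITGAV, which pairs with several beta chains, was at 1129. The platelet chain ITGA2B, at 8.23, was among the lowest 3 of the set with ITGA9 at 7.72 and ITGB7, a leukocyte chain, at 7.19. ITGA8, ITGA4 and ITGAX were not listed here.

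The beta chains divided into 4 genes of at least 1000 and 3 of at most 140. ITGB4, with the long cytoplasmic tail that reaches keratin filaments, was at 13837 and ITGB1, the common partner of most alpha chains, at 12688. ITGB5, a partner of ITGAV, was at 6404 and ITGB2, the leukocyte beta chain, at 1280. ITGB2 had a level over 1000 where the leukocyte marker PTPRC stood at 3.81. ITGB3 was at 140 and ITGB8 at 104, and ITGB6 was not listed here. The antisense RNAs were at 61.8 (ITGA6-AS1) and 46.0 (ITGA9-AS1). Each overlaps its integrin gene in RefSeq, and the libraries were made with a stranded kit, but whether the counting used strand is not given in the sources used here.

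Laminins reached a level of at least 1000 in 7 of 10 genes (70.0%), and collagens did in 12 of 29 (41.4%), beside 37.8% of protein-coding genes. The collagen share was thus near the background. The alpha chains were LAMA5 at 32132 (GRCh38 chr20:62309065-62367312), LAMA3 at 4880, LAMA4 at 119, LAMA2 at 35.0 and LAMA1 at 29.4. LAMA5 is a widespread alpha chain of basement membranes, LAMA3 one of epithelia, and LAMA2 that of muscle. The beta chains were LAMB3 at 15048, LAMB2 at 13366 and LAMB1 at 8232, and the gamma chain LAMC1 was at 17689. Each chain of the trimers of LAMA5 with LAMB1 or LAMB2 and LAMC1 therefore had a level over 1000. LAMB4 and LAMC3 were not listed here.

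Fibronectin, FN1 (GRCh38 chr2:215360865-215436068), the main RGD ligand of ITGA5 with ITGB1, had a level of 16414, above 98.9% of genes. Thrombospondin 1 (THBS1), a matrix glycoprotein outside the pattern, was at 161365.

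Among the 29 collagens, 11 had a level under 100 (37.9%), and 2 of the 10 laminins did (20.0%), beside 21.4% of protein-coding genes. The fibrillar class was carried by COL5A1 (GRCh38 chr9:134641803-134844843) at 23072, which was 88.8% of its class. Its usual partner in collagen V, COL5A2, was at 84.9. COL27A1 was at 1560, and COL3A1, COL24A1 and COL11A2 were at 10.6, 14.4 and 54.0. COL3A1 and COL24A1 were with COL4A3 (12.5) the lowest 3 of the matrix set.

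The other classes each had 1 to 3 genes of at least 1000. The collagen VI chains, which form beaded filaments, were all well over it, with COL6A1 at 9529, COL6A2 at 4196 and COL6A3 at 2831. COL7A1, the anchoring fibril that ties basement membrane to stroma, was at 8278. COL12A1, which sits on fibrils, was at 12077, and the other 4 listed fibril-associated collagens lay between 18.3 (COL9A3) and 405 (COL9A2). The transmembrane collagen COL13A1 was at 8137 and COL17A1, of hemidesmosomes, at 692. COL18A1, the precursor of endostatin, was at 19282 and its relative COL15A1 at 45.8.

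The 6 collagen IV genes lie in 3 pairs, and in each pair the genes start close together and run apart. COL4A2 was at 10424 and COL4A1 at 2876, COL4A5 at 885 and COL4A6 at 61.3, and COL4A4 at 78.7 and COL4A3 at 12.5. COL4A1 and COL4A2 form the common collagen IV trimer, and the other chains are known from kidney, eye and smooth muscle. A stretch between the starts used for each pair is given below because the 3 pairs differ in level. Bases come from RefSeq (GRCh38.p14), are on the plus strand, and have each CG in capitals. For COL4A1 and COL4A2 the stretch is the whole of chr13:110307158-110307283 (126 bases). For COL4A6 and COL4A5 it is chrX:108439588-108439708 (121 of 379 bases between the starts). For COL4A4 and COL4A3 it is chr2:227164374-227164455 (82 of 418 bases between the starts used). The COL4A4 start used there, 227164205, lies inside the gene, whose RefSeq span reaches 227164488. That stretch therefore lies within COL4A4 and is not the region between the genes.
COL4A1 and COL4A2: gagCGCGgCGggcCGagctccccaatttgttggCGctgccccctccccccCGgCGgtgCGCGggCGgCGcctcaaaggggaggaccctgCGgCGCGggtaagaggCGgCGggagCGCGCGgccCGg
COL4A6 and COL4A5: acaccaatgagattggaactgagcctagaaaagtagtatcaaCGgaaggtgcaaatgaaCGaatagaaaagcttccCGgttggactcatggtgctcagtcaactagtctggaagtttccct
COL4A4 and COL4A3: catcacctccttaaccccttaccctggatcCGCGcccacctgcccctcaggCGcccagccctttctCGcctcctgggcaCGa
The stretch of COL4A1 and COL4A2 had a GC content of 80.2% with 20 CG in 126 bases. That of COL4A6 and COL4A5 had 44.6% with 3 CG in 121 bases. That of COL4A4 and COL4A3 had 67.1% with 5 CG in 82 bases. Windows from 250 bases before to 50 after each of 35116 RefSeq starts had a median GC content of 58.7% (quartiles 47.0% and 68.0%). Their median was 4.67 CG per 100 bases. Each window holds a start, while the stretches of COL4A6 and COL4A5 and of COL4A4 and COL4A3 reach neither start used. The 3 stretches are thus unlike parts, and their values do not rank the pairs or place them against the windows. No relation to level was tested.

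The isoforms of a gene were described by the share of its level in its leading transcript. RSEM divides reads that fit several isoforms among them by estimate, so these shares are less certain than gene levels. Over genes with at least 2 listed transcripts, the median share was 52.3% in 17 genes of the integrin set (quartiles 46.9% and 60.2%). It was 73.3% in 33 matrix genes (60.1% and 86.0%), beside 59.8% in 12648 genes in all. The 17 include ITGA9-AS1, and the 16 protein-coding integrin genes had a median of 54.9% (48.8% and 60.6%). The leading transcript held less than 50% of the level in 6 of these 17 genes, or 5 of the 16 protein-coding ones (31.2%). It did so in 3 of 33 matrix genes, beside 32.2% of all genes. Because a share falls as the number of listed transcripts rises, members of at least 1000 were set beside protein-coding genes of at least 1000 with the same number. Above the upper quartile of such genes were 10 of 20 matrix genes and 2 of 9 integrin genes, and below the lower quartile were 1 of 20 matrix genes and 3 of 9 integrin genes, beside 25.1% on either side for all 4967 such genes.

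**Figure D2:**
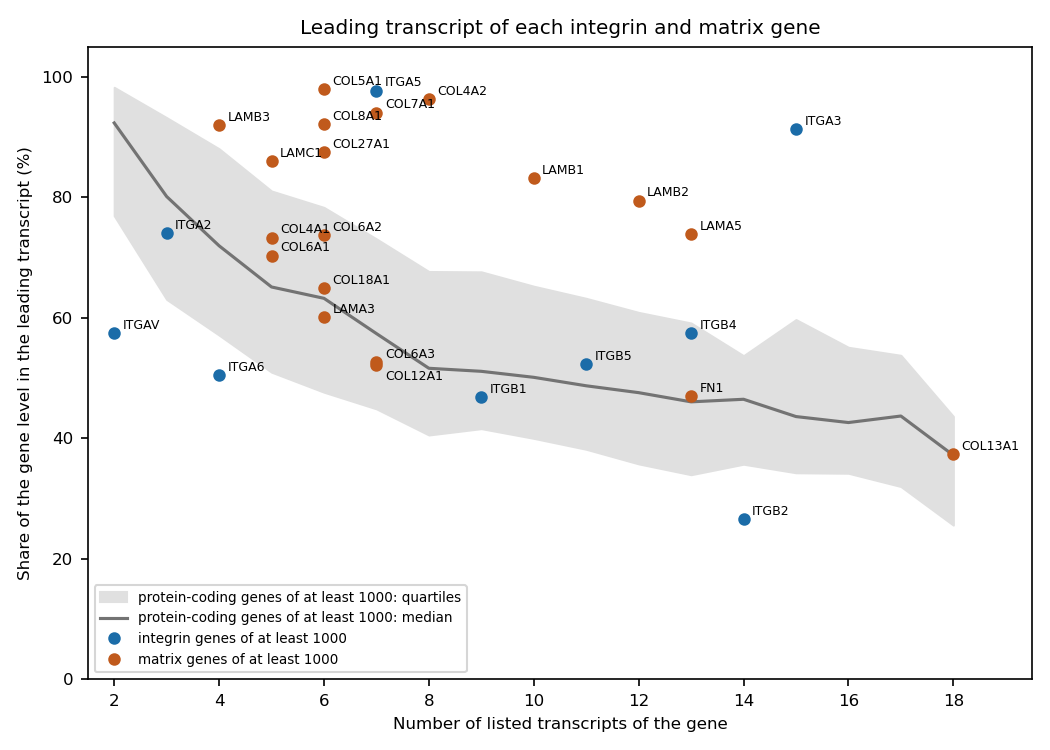
Share of the gene level in the leading transcript (%) against the number of listed transcripts, for 28 members with a level of at least 1000 (integrin blue, matrix orange), over the median (line) and quartiles (grey band) of protein-coding genes of at least 1000. ITGA3, LAMA5, LAMB1 and LAMB2 lie above the band, and ITGB2, ITGA6 and ITGAV lie below it.

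Some members were carried by a single transcript. ITGA3-202 held 91.4% of ITGA3 over 15 transcripts, where protein-coding genes with 15 transcripts had a median of 43.6% (quartiles 34.3% and 59.7%). ITGA5-201 held 97.8%, COL5A1-201 97.9%, COL4A2-201 96.3%, COL7A1-201 94.1% and LAMB3-201 92.0%. The laminins LAMA5, LAMB1, LAMB2, LAMC1 and LAMB3 were above the upper quartile for their number of transcripts, 5 of the 7 laminins of at least 1000. Of the 7, 1 was below the lower quartile. Among the 12 collagens of at least 1000, 5 were above the upper quartile and 0 below the lower, beside 25.1% on either side for all such genes.

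Several coding isoforms had sizeable parts in other members. FN1, whose alternatively spliced segments give cellular and plasma forms, had 8 coding transcripts, led by FN1-212 at 7714 (47.0%) with FN1-208 at 2544 and FN1-202 at 1746, and its leading share was close to the median of 46.1% for genes with 13 transcripts. The 4 coding transcripts of ITGA6, a gene with alternative cytoplasmic tails, stood at 3428, 1845, 1262 and 248, and its leading share of 50.5% was below the lower quartile of 57.1% for genes with 4 transcripts. ITGB2 had the lowest leading share of the 29, 26.6% over 14 transcripts. ITGB4-203 held 57.5% of ITGB4 and ITGB4-206 30.3%, and COL18A1-207 held 64.9% of COL18A1 and COL18A1-202 27.3%. The leading shares of both genes lay between the median and the upper quartile for their number of transcripts, so neither was more divided than most such genes.

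Transcript types are those of the annotation. A retained-intron transcript keeps an intron and is not translated as listed, a nonsense-mediated decay transcript has an early stop codon, and a processed transcript has no open reading frame given. Protein-coding transcripts held 92.9% of the integrin level and 90.7% of the matrix level, beside 87.6% over protein-coding genes. Retained introns held 4.02% and 4.23%, beside 4.16%. These shares weigh genes by level, so the integrin values rest largely on ITGA3. It held 55.9% of the integrin level, with 6.24% of its own level in retained introns. Nonsense-mediated decay transcripts held 1.55% and 0.462%, beside 4.22%, and made up 10.1% of integrin transcripts and 3.41% of matrix transcripts, beside 9.86%. In the matrix set, the sums for laminins and collagens were unlike. Coding transcripts held 84.3% of the laminin level and 95.6% of the collagen level, and retained introns 6.59% and 2.04%. Processed transcripts held 8.46% and 1.44%, beside 4.02% over protein-coding genes. The laminin sums rest on few genes. Retained introns held 12.3% of LAMA5 and 17.0% of LAMB2, but 0.167% of LAMB1 and 0% of LAMC1, LAMB3 and LAMA3. Processed transcripts held 13.7% of LAMA5, 15.1% of LAMB1 and 13.2% of LAMC1, but 0.115% of LAMB2 and 0% of LAMB3 and LAMA3.

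**Figure D3:**
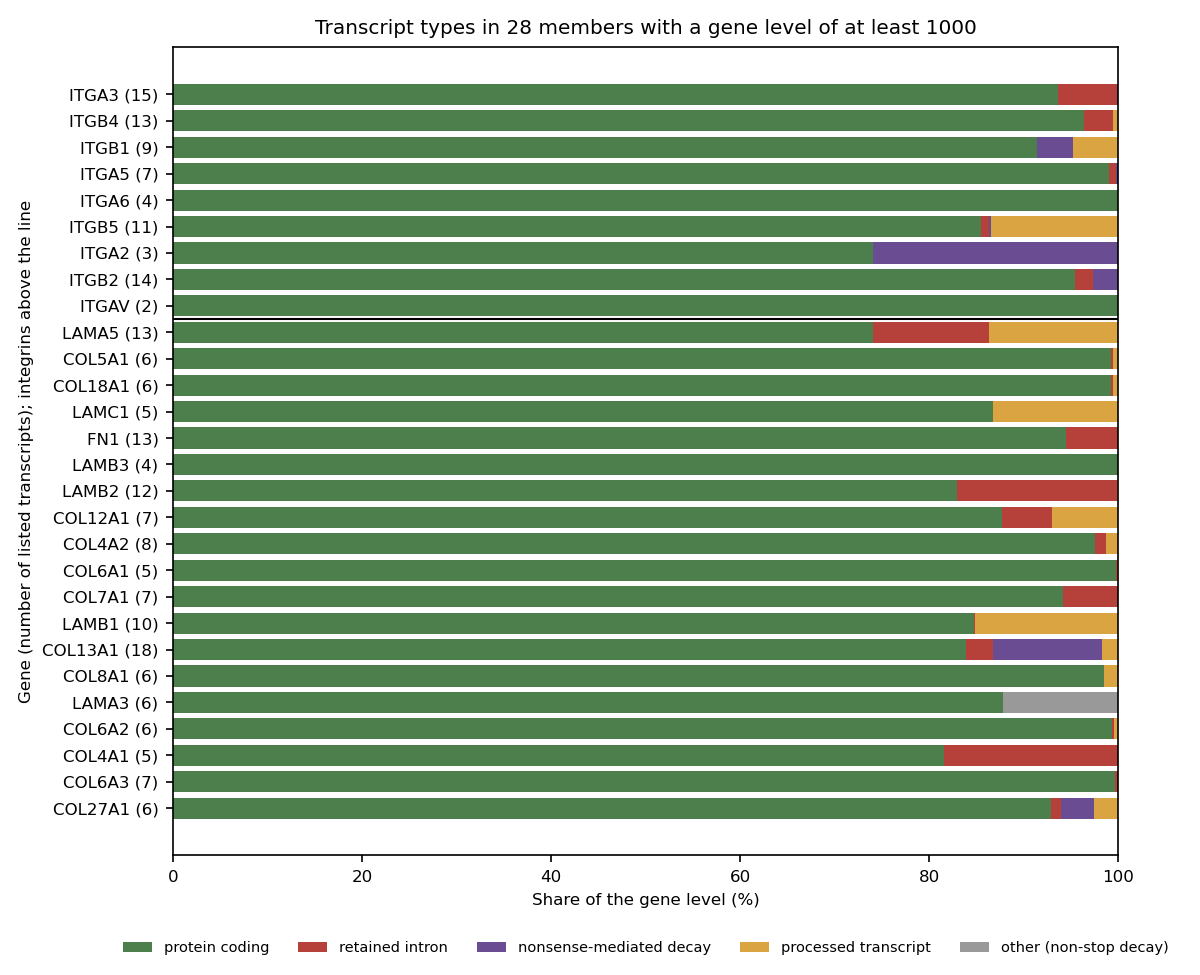
Share of the gene level (%) by annotated transcript type for 28 members of at least 1000, with the number of listed transcripts in parentheses and integrins above the line. Coding transcripts hold the largest part of every bar, and ITGA2, LAMA5, COL4A1 and LAMB2 have the widest other parts.

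The highest retained-intron shares among members of at least 1000 were 18.4% in COL4A1, from the single transcript COL4A1-214, 17.0% in LAMB2 over 9 transcripts and 12.3% in LAMA5 over 8. They were above 92.6%, 91.9% and 88.9% of the 5314 protein-coding genes of at least 1000, whose median was 0.358%. ITGA3 also had 8 retained-intron transcripts, which held 6.24% of its level. The 6 of COL7A1 held 5.88%, and the 5 of FN1 held 5.58%. Input and IP were both nuclear, so unspliced RNA was among what was sampled, and its part in these shares was not tested.

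Among the 9 integrins of at least 1000, nonsense-mediated decay transcripts held 25.9% of ITGA2, above 92.8% of the same 5314 genes, and at most 3.86% (ITGB1) of the others. ITGA2-205 alone held 22.0% of ITGA2. In COL13A1 they held 11.4% over 3 transcripts. At low levels the leading transcript itself was of this type in ITGA1, where ITGA1-208 held 60.2% and the coding transcript 12.2%, in ITGA7 (43.3%) and in COL24A1, whose only listed transcript was of this type. A coding transcript led in 15 of the 18 protein-coding integrin genes (83.3%) and 39 of 40 matrix genes (97.5%), beside 87.1% of protein-coding genes. Besides ITGA1 and ITGA7, the exception among integrins was ITGAE, where processed transcripts held 80.2% of a level of 196.

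The neighbouring genes of the pathway were all measured in the same way. Counts over 1000 in these hand-picked lists stand beside 37.8% of protein-coding genes. Of 13 genes that join integrins to actin or signal from them, all were listed and 9 had a level of at least 1000, with a median of 3253. Talin (TLN1), which activates integrins by binding beta tails, was at 63436, vinculin (VCL) at 21170 and paxillin (PXN) at 14402. Of 16 genes that process collagen, 15 were listed and 8 had a level of at least 1000, among them P4HB of prolyl hydroxylase at 34813, the cross-linking oxidase LOXL2 at 12398 and the collagen chaperone SERPINH1 at 9708. Of 9 other matrix glycoproteins and proteoglycans, 8 were listed and 4 reached 1000. Agrin (AGRN) was at 24877 and perlecan (HSPG2) at 24769, while SPARC, which binds collagen, was at 11.4. The lowest listed genes of the lists were FERMT3 at 80.7, P4HA3 at 13.0 and NID2 at 10.1.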

How the data were processed

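Per the labels and the study's methods, the authors aligned reads with STAR (version 2.7.2b) to a GENCODE v33 transcriptome (GRCh38), estimated counts per transcript with RSEM (version 1.2.31), dropped transcripts that did not reach 5 reads in 50% of the samples or more, and ran RUVSeq and DESeq2. The strand setting and the treatment of duplicates are not given in the sources used here. RSEM's division of shared reads makes isoform values less certain than gene sums.

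The deposited table holds 1 signal value used here, the authors' mean normalized count per transcript for the whole comparison. The column names no library and was read from the labels as covering the 2 IP and 2 input libraries, although the study's methods describe a fold change upon knockdown. Its 4 other columns hold the authors' own comparison (log2 fold change, its error, p-value and adjusted p-value) and were left out by choice, so IP was not compared with input. It has 0 columns of values for single libraries, so depth and replicate error could not be had, although a count test had been planned in case counts were given. The study describes its 2 libraries per group as biological replicates. The IgG precipitation of the protocol was not analysed here.

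Values were summed per gene identifier with Python 3.11.15, pandas 2.3.3 and numpy 2.4.6, and plotted with matplotlib 3.10.9. The summing and share steps were tested on simulated data. All 60 members matched RefSeq (GRCh38.p14) for positions. Genes named by rule were FN1, the 10 integrins and 12 collagens or laminins with the highest levels, and the 3 lowest of each set, and others were named by class or after their values were seen. One member is not reported here and is left out of the plots, and counts over sets include it. The members and gene lists were chosen with earlier results of these data known. The marks at 1000, 100, 90% and 50% were set after the values were seen.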

Additional observations from a re-analysis of the deposited data

How the results depend on the processing

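Of 22 values computed with another choice of transcripts or genes, 15 stayed within 1.5 times, 7 moved further and 0 reversed. The 7 concern the integrin median, 332 as reported. It was 708 with protein-coding transcripts only, 184 with the most abundant transcript alone, 1129 with transcripts of at least 10 (17 genes left) and 749 with genes that have a protein-coding transcript (18 left). The log2 ratio of the integrin to the matrix median, -1.88 as reported, was -1.03 with protein-coding transcripts only, -0.11 with transcripts of at least 10 and -1.06 with genes that have a protein-coding transcript. Fewer integrin genes remain under these 3 choices, by construction. The shares of the 3 highest genes and the median leading shares stayed within 1.5 times under the choices computed. Division by coding length was not run, since no protein lengths were given. No paired analysis was possible because the table has no values per library, and for the same reason no library could be left out. Unknown depth leaves low levels without an interval.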
